A study of Arabidopsis thaliana with 6 samples.

Results

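Calcium sensor and calcium-dependent kinase genes of Arabidopsis thaliana were followed in seedlings of the hrlp-2 line and of the wild type Col (WT). The members were chosen by name: every row called CAM, CML, CBL, CPK or CIPK followed by a number was taken. That gave 101 of the 22759 named rows, made up of 6 calmodulin genes (CAM), 36 calmodulin-like genes (CML), 6 calcineurin B-like genes (CBL), 27 calcium-dependent protein kinase genes (CPK) and 26 CBL-interacting protein kinase genes (CIPK). These families were picked with the hrlp-2 and WT values of the same libraries in view, so the counts, fold changes and p-values given for them are a description of these libraries and not an independent test of the families. RefSeq placed 78 of the 101 rows at a locus; the other 23, all CML rows, are known here by name only.

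RNA was sequenced from shoots (all aerial parts) of seedlings 9 days old, kept at 23 ± 2 °C under 16 h of light and 8 h of dark, with 3 hrlp-2 and 3 WT libraries. The labels call hrlp-2 a knockout of HRLP, the gene of an RNA-binding protein related to hnRNP R, and give no other allele or treatment for either group. hrlp-2 is a single mutant line, and the site of its lesion is not given in the sources used here. The libraries of a group are labelled as biological replicates.

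Calcium ions act as a second messenger in plant cells: touch, cold, salt, wounding and microbial patterns each raise the cytosolic concentration for a short time. Calmodulins and calmodulin-like proteins bind the ions through EF-hand loops and pass the signal to other proteins, having no enzymatic activity of their own. CBL proteins are sensors of the same kind that recruit CIPK kinases, whereas a CPK protein joins a kinase domain and EF hands in one chain. Several CML genes were first found as touch-induced (TCH) genes, among them CML12 (TCH3) and CML24 (TCH2), and CAM2 is TCH1.

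The members the results turn on include CML24, CML23 and CML12, 3 genes that rose in hrlp-2 and that each lie next to a calmodulin gene. Their start regions are shown because members that move together invite a look at what the regions share. Each run covers 250 bases before and 50 bases after the annotated gene start, 5′ to 3′ on the gene's own strand, from the RefSeq TAIR10.1 assembly: chr5:14999570-14999869 (minus strand) for CML24, chr1:24771344-24771643 (minus strand) for CML23 and chr2:17136787-17137086 (plus strand) for CML12. Capitals mark any match to CGCGTT, the core of the rapid stress response element, or to ACGCGT, a palindrome of the CGCG-box kind; both contain CGCG, which calmodulin-binding CAMTA transcription factors recognise.
CML24: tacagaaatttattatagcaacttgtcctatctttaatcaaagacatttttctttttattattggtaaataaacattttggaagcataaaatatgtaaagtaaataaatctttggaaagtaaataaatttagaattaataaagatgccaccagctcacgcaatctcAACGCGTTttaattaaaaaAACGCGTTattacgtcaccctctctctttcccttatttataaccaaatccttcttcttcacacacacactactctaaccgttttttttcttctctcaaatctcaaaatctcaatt
CML23: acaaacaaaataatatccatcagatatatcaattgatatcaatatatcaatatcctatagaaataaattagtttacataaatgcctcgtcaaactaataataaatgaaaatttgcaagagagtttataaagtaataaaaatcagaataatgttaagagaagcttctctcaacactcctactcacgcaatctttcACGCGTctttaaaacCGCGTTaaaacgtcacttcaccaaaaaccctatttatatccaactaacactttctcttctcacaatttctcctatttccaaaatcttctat
CML12: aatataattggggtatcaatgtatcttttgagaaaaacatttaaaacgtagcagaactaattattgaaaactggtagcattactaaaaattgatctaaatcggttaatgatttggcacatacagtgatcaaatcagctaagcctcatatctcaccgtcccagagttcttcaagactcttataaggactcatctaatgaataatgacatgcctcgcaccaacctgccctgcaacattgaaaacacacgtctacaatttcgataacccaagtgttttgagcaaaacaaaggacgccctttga

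The CML24 region held 2 copies of the 8-base run AACGCGTT, which begin at -84 and -65 from the gene start. Each copy matches the palindrome once and CGCGTT on both strands, so the 6 matches counted there overlap one another. In the CML23 region the palindrome began at -56 and CGCGTT at -41. The CML12 region had no match to either hexamer in this window. Searched on both strands, CGCGTT was present in the windows of 7 of the 78 located members (9.0%) and in 3.4% of the same windows of all 27443 protein-coding genes. ACGCGT was present in 5 members' windows (6.4%) and in 2.1% of all windows. Other sequences with CGCG were not counted, such as CCGCGT in the windows of CAM2 and CPK6, neither of which was called. Of the 8 members with a match to CGCGTT or ACGCGT, CML23, CML24 and CIPK11 were called higher in hrlp-2, and CML9, CBL9, CPK29, CPK33 and CIPK2 were not called. The CPK29 window has a run of undetermined bases (n) between its matches, from -220, and the gene start. Nearer matches there could not be seen. Of the 78 located members, some of which were not tested, 11 were called higher. Of the 83 tested members with or without a locus 16 were called higher, and of all tested rows 11%. The CIPK11 match began at 42, past the gene start, and the CIPK11 call was lost in 5 of 15 alternative settings. A link between the hexamers and the calls was not tested. Another 4 motifs were searched in the same way. CACGTG, the G-box, was in 5.1% of the members' windows and 7.7% of all windows, and CCGAC, the core of the dehydration-responsive element, in 16.7% of the members' windows and 15.0% of all. TTGAC, the W-box core of WRKY factors, was in 61.5% of the members' windows and 50.5% of all, and AAAATATCT, the evening element, in 1.3% of the members' windows and 2.8% of all. These are matches of letters, with no measurement of binding behind them.

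**Figure D1:**
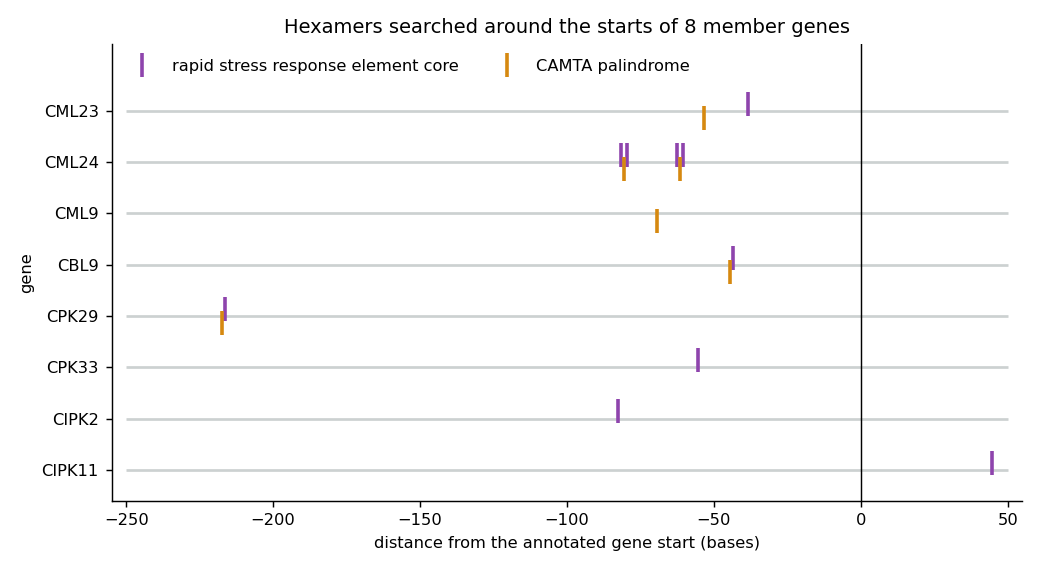
Position of the 2 CGCG hexamers around the annotated gene starts of the 8 members with a match. The x axis gives the distance from the gene start in bases, purple ticks mark the rapid stress response element core and orange ticks the CAMTA palindrome. CML24 has 2 groups of overlapping ticks near the start and CML23 has 2 separate ticks. Part of the CPK29 window is undetermined bases, where no match could be seen.

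Values are CPM, the reads of a gene scaled to the total of its library. From the spacing of the low values, 1 read was worth 0.0397 to 0.0501 CPM in a library, so a gene at 1 CPM rested on 25.2 reads in the deepest library. Both groups separated along the first principal component, which took 42.3% of the variance. WT replicate 3 stood apart from its group in a set of rows, with a mean chi-square of 11.26 and 13.42 per row against the other WT libraries, compared with 2.25 to 2.503 for the remaining within-group pairs. The HRLP row itself (AT2G44710) had 16.76, 17.03 and 15.88 CPM in hrlp-2, against 30.03, 33.04 and 30.37 CPM in WT. HRLP transcripts were thus at 53.2% of the WT mean, a log2 fold change of -0.87 (SE 0.0647, adjusted p = 3.99e-12), and were not lost from the libraries labelled as knockout. Among leaf mesophyll markers, LHCB1.1 reached 11290 to 11650 CPM in hrlp-2 and 12139 to 12350 CPM in WT, while no library had a read for the root endodermis genes CASP2 and CASP4. Of the markers tested for other tissues, 1 of 2 root, 1 of 5 phloem and xylem and 1 of 3 mesophyll markers were called higher in hrlp-2, while 2 vascular, 1 mesophyll and 2 of 5 guard cell markers were called lower and none of 4 pollen and trichome markers was called. In whole aerial tissue fewer cells of a type and less RNA per cell cannot be told apart, and the part of cell makeup in the members' values was not tested.

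Of the 101 members, 83 passed the filter of 0.5 CPM in at least 3 libraries and were tested; 82 of these were above the filter in all 6 libraries. The 18 untested members never exceeded 0.98 CPM in a library, and 2 of them, CML6 and CML30, were listed at 0 everywhere. Log2 fold changes are hrlp-2 minus WT on the log2(CPM + 0.5) scale after TMM scaling, tested with limma, and a gene is called where the p adjusted over all 18643 tested rows is under 0.05.

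By that rule 16 of the 83 tested members were called higher in hrlp-2 and 4 lower, which is 24.1% of them. Over all 18643 rows 20.4% were called, 11% higher and 9.31% lower. The calls fell unevenly over the families. Of 26 tested CML genes 9 were called higher and 1 lower, or 38.5%. Of 46 tested kinase genes 6 were called higher and 2 lower, or 17.4%. The count called higher fell to 3 without WT replicate 1, without WT replicate 3 or without hrlp-2 replicate 3. The last of these counts includes CPK3, which the main fit did not call. Without hrlp-2 replicate 2 the calls of CIPK4, CIPK11 and CIPK12 were lost, while CPK6 and CPK12 gained a call. The difference between CML and kinase genes was not tested, since the families were picked on these values.

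The size of change set the CML genes further apart from the kinases in description. Of the 26 tested CML genes, 6 changed by at least 1.5-fold, against 1 of 46 kinase genes (CIPK11); over all tested rows 2.21% did. The 3 members past 2-fold, of 82 rows past it in all, were CML5, CML23 and CML24. Median log2 fold changes were 0.15 for the CML genes, 0.05 for the kinases and 0.00 for all tested rows. The CML median was 0.08 without WT replicate 2 and 0.10 with no expression filter. Without overlap between groups, 20 members lay higher in hrlp-2 and 8 lower on the deposited CPM, beside 14.7% of all tested rows higher and 18.7% lower.

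**Figure D2:**
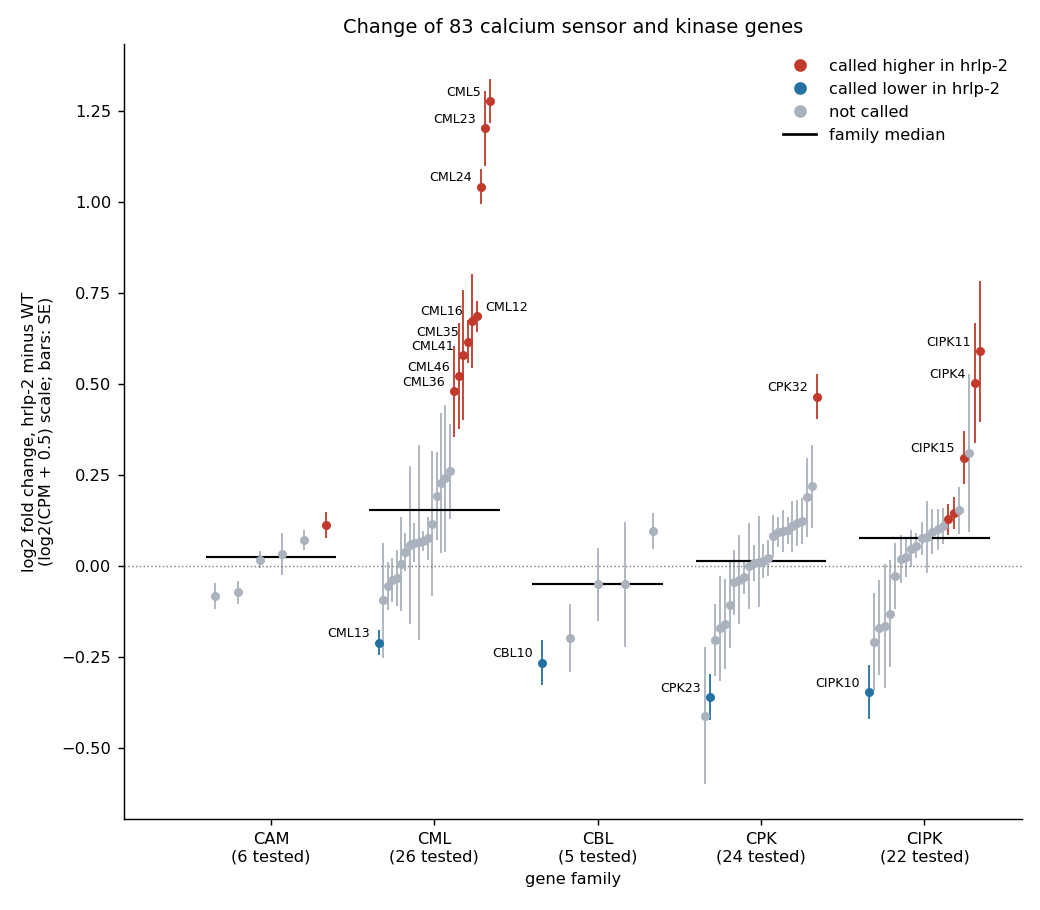
Log2 fold change (hrlp-2 minus WT, y axis, with SE bars) of each of the 83 tested members, grouped by family on the x axis; colours give the call and black lines the family medians. The largest rises are in CML genes (1.28 for CML5), and most CPK genes lie close to 0.

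Summed levels were also compared by family. CML rows together reached 801.8, 829.2 and 831.1 CPM in hrlp-2, against 716.2, 719.4 and 693.7 CPM in WT. CAM rows summed to 998 ± 14.2 CPM in hrlp-2 and 1001 ± 19.2 CPM in WT (SD, n = 3 each). CPK rows summed to 620.6 ± 2.09 CPM in hrlp-2 and 607.7 ± 4.06 CPM in WT, and CIPK rows to 608.3 ± 9 CPM in hrlp-2 and 585.1 ± 9.12 CPM in WT. The CBL sum was 104.3 to 118.8 CPM in hrlp-2 and 117.7 to 119.4 CPM in WT. Only the CML, CPK and CIPK sums were free of overlap between the groups, and the CML sum differed most.

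Calmodulins are sensors of highly conserved sequence. The 6 CAM genes each encode a protein of 149 residues with 4 EF-hand loops; the CAM1 and CAM4 proteins are identical, as are those of CAM2 and CAM5, and no pair shares less than 96.6% of its residues. Their coding sequences match at 82.7 to 89.6% of bases. Sharing of reads between them is possible and was not measured. Set against exon length, CAM5 had the highest level, with 450 CPM per kb in hrlp-2 and 452 in WT. CAM4 followed with 232 CPM per kb in hrlp-2 and 225 in WT, and CAM2 was lowest with 35.2 in hrlp-2 and 34.8 in WT.

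CAM1 was the only calmodulin gene called. It had 144.7, 141.9 and 142.3 CPM in hrlp-2, against 125.7, 143.4 and 133.6 CPM in WT. WT replicate 2 lay inside the hrlp-2 range, so the groups overlap. The log2 fold change was 0.11 (SE 0.0356, adjusted p = 0.0224). That call was lost on the deposited CPM without rescaling (adjusted p = 0.0736) and with no expression filter (0.0606). It was also lost without WT replicate 1 (0.204), WT replicate 3 (0.053), hrlp-2 replicate 1 (0.0748) or hrlp-2 replicate 2 (0.0541).

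The other 5 calmodulin genes had log2 fold changes between -0.08 and 0.07. CAM6 (99.1 ± 3.49 CPM in hrlp-2, 106.5 ± 2.96 in WT) and CAM7 (159.8 ± 3.96 in hrlp-2, 170.6 ± 7.34 in WT) had negative values and were not called after TMM scaling. On the deposited CPM without rescaling both were called lower (adjusted p = 0.0417 for CAM6 and 0.0415 for CAM7), and CAM7 was also called lower without WT replicate 1 (0.0187). CAM5 had 345.0, 348.0 and 355.6 CPM in hrlp-2, against 348.8, 353.5 and 348.9 CPM in WT, and its sign flipped on the deposited CPM. None of the calmodulin genes moved by as much as 1.1-fold.

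Calmodulin-like genes held the largest changes. CML5, whose product sits on endomembranes, had 47.1, 45.3 and 41.7 CPM in hrlp-2, against 17.7, 19.4 and 18.1 CPM in WT. Every hrlp-2 library was more than 2 times as high as any WT library. The log2 fold change was 1.28 (SE 0.0601, adjusted p = 6.14e-17), the 19th largest rise among all 18643 rows.

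CML24, the touch gene TCH2, had 65.8, 65.5 and 69.1 CPM in hrlp-2, against 32.8, 34.2 and 31.0 CPM in WT. Its close paralogue CML23, at lower level, had 13.8, 13.3 and 15.7 CPM in hrlp-2, against 6.46, 5.45 and 6.11 CPM in WT. In both genes the groups stood far apart, with about doubled levels in all 3 mutant libraries. Log2 fold changes were 1.04 for CML24 (SE 0.0475, adjusted p = 3.18e-17) and 1.202 for CML23 (SE 0.103, adjusted p = 1.16e-10). The encoded proteins, of 161 and 157 residues with 4 EF-hand loops each, share 76.4% of 157 aligned residues, and their coding sequences 80.8% of bases. These genes are the pair with CGCG hexamers in the start regions printed above.

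CML12, the touch gene TCH3, encodes a longer protein of 324 residues with 6 EF-hand loops. It had 67.1, 68.9 and 66.9 CPM in hrlp-2, against 42.0, 41.9 and 43.5 CPM in WT. The groups did not overlap and the spread within each was small. The log2 fold change was 0.69 (SE 0.0436, adjusted p = 9.71e-14). Set against exon length, CML12 was at 54.0 CPM per kb in hrlp-2 and 33.9 in WT, CML24 at 38.4 in hrlp-2 and 18.8 in WT, and CML23 at 14.6 in hrlp-2 and 6.16 in WT. On the opposite strand 2 genes overlap CML12 and 1 overlaps CML24. The strand setting of the counting is not given here, so reads of the strands may not be separated.

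CML35 rose as well, with 42.0, 47.1 and 43.7 CPM in hrlp-2, against 29.5, 31.4 and 26.6 CPM in WT (log2 fold change 0.62, SE 0.0581, adjusted p = 1.0e-09). CML16 had 6.75, 10.2 and 9.21 CPM in hrlp-2, against 5.66, 5.50 and 4.75 CPM in WT (log2 fold change 0.67, SE 0.13, adjusted p = 0.000223). CML36, whose product binds the plasma membrane calcium pump ACA8, had 6.08, 7.24 and 6.45 CPM in hrlp-2, against 4.93, 4.61 and 4.39 CPM in WT (log2 fold change 0.48, adjusted p = 0.00545). In these 3 genes the groups did not overlap, although hrlp-2 replicate 1 of CML16 lay closer to WT than the other mutant libraries did.

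A pair of low-level CML genes linked to defence passed less firmly. CML41, which acts on callose at plasmodesmata, had 3.10, 3.65 and 2.81 CPM in hrlp-2, against 2.59, 2.00 and 1.49 CPM in WT (log2 fold change 0.58, adjusted p = 0.0193). CML46, a regulator of salicylic acid, had 4.09, 5.17 and 4.77 CPM in hrlp-2, against 3.19, 3.06 and 3.17 CPM in WT (log2 fold change 0.52, adjusted p = 0.00899). Neither gene's groups overlapped. The CML41 call was lost without WT replicate 2 (adjusted p = 0.0527), WT replicate 3 (0.136) or hrlp-2 replicate 2 (0.101) and with no expression filter (0.053), and the CML46 call without hrlp-2 replicate 2 (0.0552).

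CML13, whose product binds the IQ motifs of myosins, was the only CML gene called lower. It had 95.6, 97.7 and 99.8 CPM in hrlp-2, against 113.6, 116.4 and 114.2 CPM in WT, with no overlap. The log2 fold change was -0.21 (SE 0.0338, adjusted p = 1.73e-05).

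The other 16 tested CML genes were not called, and their log2 fold changes ran from -0.10 (CML47) to 0.26 (CML18). CML10, an ascorbate-linked sensor with the most reads of its family, had 259.8 ± 6.97 CPM in hrlp-2 and 251.5 ± 6.26 CPM in WT (SD, n = 3 each). Without hrlp-2 replicate 1 it was called higher (adjusted p = 0.0346). CML9, which acts in abscisic acid and flagellin responses, had 36.0 ± 0.304 CPM in hrlp-2 and 35.6 ± 2.09 CPM in WT. CML38, a hypoxia and wound gene, was at 1.5 to 2.35 CPM in hrlp-2 and 1.33 to 2.04 CPM in WT, and its relative CML37 was too low to be tested.

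**Figure D3:**
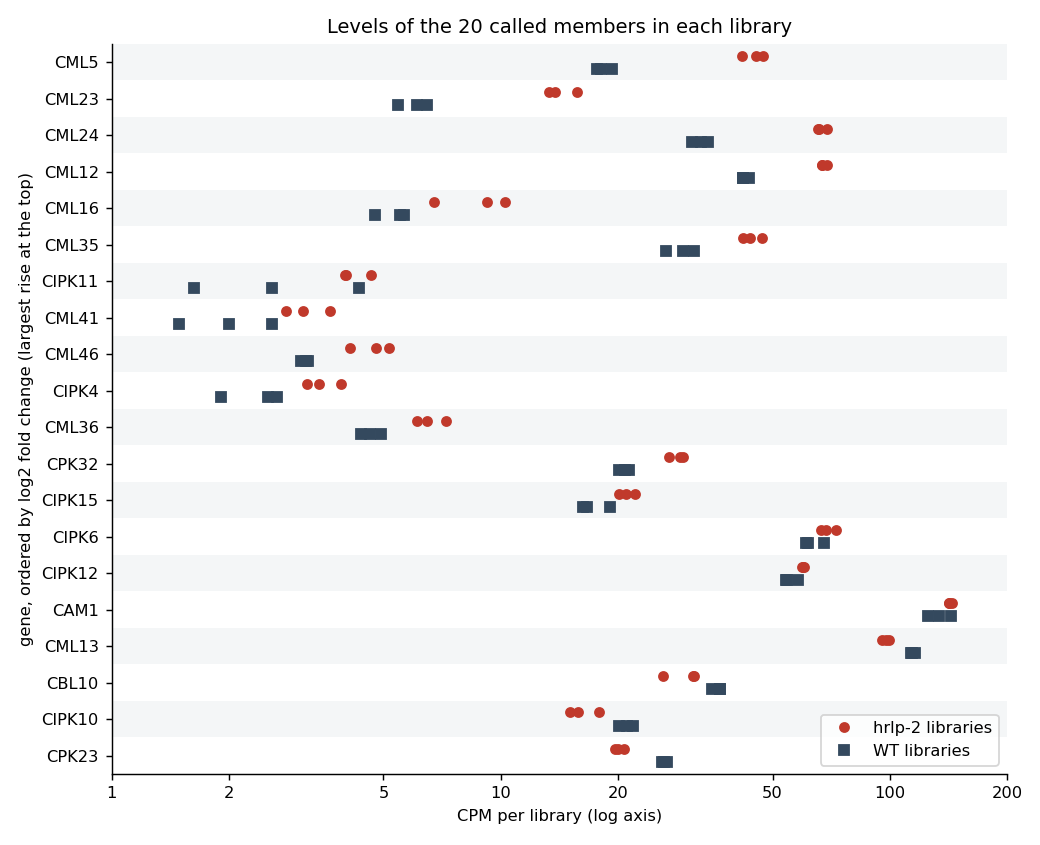
CPM of the 20 called members in each library (x axis, log scale), 1 gene a row, ordered by log2 fold change with the largest rise at the top; red circles are hrlp-2 and dark squares WT libraries. Groups overlap in CIPK11, CIPK6 and CAM1 and are apart in the other 17.

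Among the located sensor genes, CML23, CML12 and CML24 each lie next to a calmodulin gene. CML23 and CAM4 lie on chromosome 1 with 2719 bases between them, CML12 and CAM2 on chromosome 2 with 482 bases, and CML24 and CAM1 on chromosome 5 with 4846 bases. The genes of a pair point the same way and no other protein-coding gene lies between them. In each pair the CML gene was called higher with a log2 fold change of 0.69 to 1.202, while the calmodulin neighbour was at 0.07 (CAM4, adjusted p = 0.0721), 0.03 (CAM2, 0.762) and 0.11 (CAM1, 0.0224). CAM4 had 214.7, 211.6 and 220.1 CPM in hrlp-2, against 206.1, 207.9 and 210.4 CPM in WT. CAM2 had 30.7, 33.6 and 29.2 CPM in hrlp-2, against 31.0, 31.1 and 30.4 CPM in WT. The gap between CAM4 groups was small and the CAM2 groups overlapped. Protein identity was 61.1% for CML12 and CAM2, 40.9% for CML23 and CAM4 and 40.7% for CML24 and CAM1. These shares are of 149, 149 and 145 aligned residues, so much of the 324-residue CML12 protein is not covered. The sensor genes CML39 and CML38 also lie side by side, with 883 bases between them. CML39 was not tested, and CML38 was not called (adjusted p = 0.749).

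**Figure D4:**
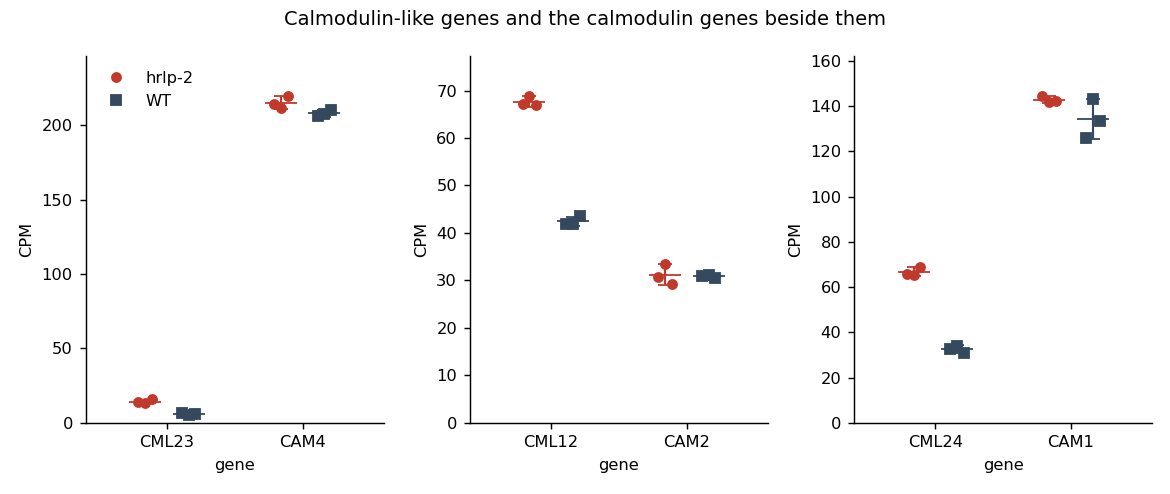
CPM of 3 calmodulin-like genes and the calmodulin gene next to each (y axis, by gene on the x axis), with hrlp-2 (red circles) left of WT (dark squares); points are libraries, and the bars are mean ± SD with n = 3. The CML gene of each pair is apart between groups (66.8 CPM in hrlp-2 and 32.6 CPM in WT for CML24), and the neighbour is close to level.

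Of the 5 tested CBL genes none was called higher and 1 lower (20%, beside 20.4% of all rows). CBL10, which brings CIPK24 (SOS2) to membranes in salt-stressed shoots, was the one called. It had 26.2, 31.3 and 31.2 CPM in hrlp-2, against 36.5, 36.7 and 34.9 CPM in WT, a log2 fold change of -0.27 (SE 0.0609, adjusted p = 0.00159). The groups did not overlap, and hrlp-2 replicate 1 was the lowest. GLDP1, a highly expressed photorespiratory gene, overlaps CBL10 on the other strand and had 1413 ± 21.7 CPM in hrlp-2 and 1350 ± 25.5 CPM in WT, so it went the other way.

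CBL2, a vacuolar membrane sensor and the CBL row with the highest level, had 52.3, 62.0 and 60.5 CPM in hrlp-2, against 55.9, 54.9 and 54.6 CPM in WT. Its hrlp-2 libraries lay on both sides of the WT range (log2 fold change 0.10, adjusted p = 0.195). Without hrlp-2 replicate 1, the lowest library, CBL2 was called higher (adjusted p = 0.0107). CBL1 and CBL9 together activate CIPK23 in potassium uptake. CBL1 had 10.5 ± 0.951 CPM in hrlp-2 and 12.3 ± 0.730 in WT, and CBL9 11.5 ± 1.62 in hrlp-2 and 12.1 ± 1.35 in WT; neither was called (adjusted p = 0.136 and 0.788). CBL6 was below the filter. CBL3 is listed under another name and was not called, with 39.1 ± 2.76 CPM in hrlp-2 and 40.0 ± 0.717 CPM in WT.

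Of the 24 tested genes of calcium-dependent protein kinases, 1 was called higher and 1 lower (8.33%, beside 20.4% of all rows), and the median log2 fold change was 0.01. CPK32, a kinase of abscisic acid-responsive transcription factors, had 29.5, 27.1 and 29.0 CPM in hrlp-2, against 20.8, 21.4 and 20.1 CPM in WT. The groups were apart, with a log2 fold change of 0.47 (SE 0.0619, adjusted p = 8.14e-07). CPK3, which acts in guard cells and salt stress, had the highest CPM of its family at 96.8 ± 5.51 in hrlp-2 and 92.0 ± 5.38 in WT, and was not called (adjusted p = 0.123).

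CPK23, which with CPK21 activates the guard cell anion channel SLAC1, was the one called lower. It had 20.8, 19.7 and 20.03 CPM in hrlp-2, against 26.4, 26.0 and 26.8 CPM in WT, with no overlap. The log2 fold change was -0.36 (SE 0.0625, adjusted p = 5.22e-05). The 5 guard cell markers examined (FAMA, MYB60, KAT1, EPF1 and HIC) all had negative fold changes, and 2 of the 5 were called lower. Summed, they reached 68.2 to 76.2 CPM in hrlp-2 and 83.5 to 88.6 CPM in WT. The part of guard cells in the CPK23 value was not tested.

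CPK23 is the last of 5 CPK genes that follow one another on the minus strand of chromosome 4: CPK31, CPK27, CPK22, CPK21 and CPK23, with 1 other coding gene between CPK21 and CPK23. CPK21 had 44.7, 41.8 and 43.7 CPM in hrlp-2, against 41.6, 46.4 and 42.1 CPM in WT. CPK31 had 8.14, 8.84 and 8.20 CPM in hrlp-2, against 10.2, 9.31 and 10.2 CPM in WT. CPK21 thus overlapped entirely (log2 fold change 0.02, adjusted p = 0.826), while CPK31 was apart but not called (-0.20, adjusted p = 0.159). CPK27 was at 6.23 ± 0.447 CPM in hrlp-2 and 6.86 ± 0.660 CPM in WT (adjusted p = 0.591), and CPK22 was below the filter. Since the coding sequences of CPK21 and CPK23 match at 90.4% of 1551 aligned bases, reads may be split unevenly between them.

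**Figure D5:**
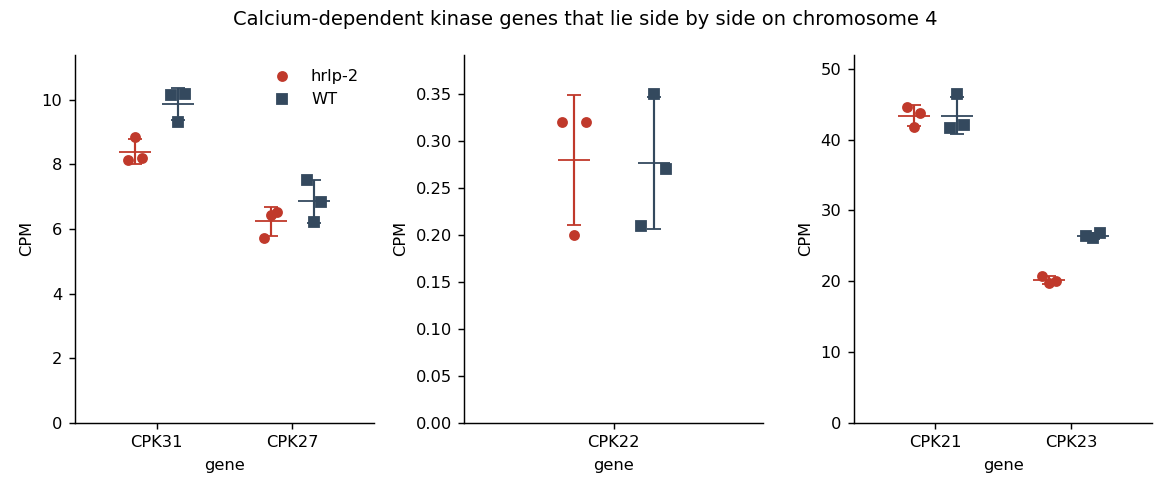
CPM of 5 neighbouring CPK genes of chromosome 4 (y axis, by gene on the x axis, with a scale per panel), with hrlp-2 (red circles) left of WT (dark squares); points are libraries, and the bars are mean ± SD with n = 3. CPK23 is lower in hrlp-2 (20.2 against 26.4 CPM), and CPK21 is at 43.4 CPM in both groups.

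Of the 22 tested CIPK genes, 5 were called higher and 1 lower (27.3%, beside 20.4% of all rows). CIPK15, a kinase that inhibits ammonium transporters, had 21.1, 20.1 and 22.1 CPM in hrlp-2, against 16.7, 19.1 and 16.3 CPM in WT (log2 fold change 0.30, SE 0.0729, adjusted p = 0.00309). CIPK10 was lower, with 17.9, 15.1 and 15.8 CPM in hrlp-2, against 20.2, 21.9 and 21.1 CPM in WT (log2 fold change -0.35, SE 0.0741, adjusted p = 0.000749). Both were free of overlap, and both kept the call in all 15 alternative settings. CIPK14 lies beside CIPK15 in the opposite orientation and was not called, at 33.2 ± 1.26 CPM in hrlp-2 and 31.4 ± 1.33 CPM in WT.

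The remaining 4 calls were each lost when a single library was left out. CIPK11 (PKS5), an inhibitor of the plasma membrane proton pump, had 3.99, 4.65 and 4 CPM in hrlp-2, against 4.33, 2.58 and 1.63 CPM in WT. Its groups overlap because of WT replicate 1, and the call (log2 fold change 0.59, adjusted p = 0.0271) was lost without WT replicate 2 (0.0884), WT replicate 3 (0.281), hrlp-2 replicate 2 (0.112) or hrlp-2 replicate 3 (0.0533), or with no expression filter (0.12). CIPK4 had 3.18, 3.90 and 3.41 CPM in hrlp-2, against 1.91, 2.53 and 2.67 CPM in WT, with no overlap (log2 fold change 0.50, adjusted p = 0.0282). That call was lost without WT replicate 1 (0.145), hrlp-2 replicate 2 (0.119) or hrlp-2 replicate 3 (0.06), or with no expression filter (0.0595).

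CIPK12, a partner of the vacuolar sensors CBL2 and CBL3, had 60.0, 59.4 and 60.3 CPM in hrlp-2, against 54.1, 58.1 and 54.5 CPM in WT. The groups did not overlap, but the change was small (log2 fold change 0.13, adjusted p = 0.0302) and was not called on the deposited CPM (0.0786). Leaving out any single library other than WT replicate 2 also ended that call, with adjusted p of 0.0621 to 0.114 (WT replicates 1 and 3, and hrlp-2 replicates 1, 2 and 3). CIPK6, which with CBL4 brings the potassium channel AKT2 to the membrane, was named after its values were seen, to complete the count. It had 68.5, 66.5 and 72.7 CPM in hrlp-2, against 61.7, 67.9 and 60.9 CPM in WT, with WT replicate 2 inside the hrlp-2 range (log2 fold change 0.14, adjusted p = 0.018). The CIPK6 call was lost on the deposited CPM (0.0507) and without WT replicate 1 (0.0741), WT replicate 3 (0.101) or hrlp-2 replicate 3 (0.133).

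Among CIPK genes with no call, CIPK21, an osmotic stress kinase of the vacuolar membrane, had the highest CPM at 119.5 ± 3.90 in hrlp-2 and 116.6 ± 3.46 in WT (log2 fold change 0.06, adjusted p = 0.278). CIPK24 (SOS2), the salt tolerance kinase served by CBL10, had 5.2, 4.6 and 4.14 CPM in hrlp-2, against 6.25, 4.83 and 5.52 CPM in WT, and was not called (log2 fold change -0.21, adjusted p = 0.307). Its groups overlapped, whereas those of CBL10 did not.

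Genes that let calcium into the cytosol gave 6 calls higher and 2 lower among 32 tested channel genes (25%, beside 20.4% of all rows), and their median log2 fold change was 0.01. ANN1, an annexin with calcium-permeable activity, had 333 ± 2.73 CPM in hrlp-2 and 279 ± 7.27 CPM in WT (log2 fold change 0.27, adjusted p = 5.81e-10). TPC1, the vacuolar cation channel, had 84.0 ± 4.29 CPM in hrlp-2 and 73.4 ± 3.96 CPM in WT (log2 fold change 0.21, adjusted p = 0.00036). Both rose by less than the leading CML genes. The glutamate receptor-like channel gene GLR3.4 was lower, at 38.7 ± 3.04 CPM in hrlp-2 and 47.5 ± 1.35 CPM in WT (adjusted p = 0.000214), as was the scarce GLR2.1, at 0.793 ± 0.112 CPM in hrlp-2 and 1.81 ± 0.417 CPM in WT (adjusted p = 0.00544).

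Genes that remove calcium from the cytosol gave 5 calls higher and 1 lower among 20 tested pump and exchanger genes (30%, beside 20.4% of all rows), with a median log2 fold change of 0.10. CAX1, the vacuolar calcium and proton exchanger, had 182.5 ± 6.05 CPM in hrlp-2 and 166.6 ± 1.36 CPM in WT (adjusted p = 0.00029). ACA2, a pump of the endoplasmic reticulum, had 27.1 ± 1.19 CPM in hrlp-2 and 23.4 ± 1.2 CPM in WT (adjusted p = 0.00726). ACA10, at the plasma membrane, had 41.7 ± 1.80 CPM in hrlp-2 and 37.9 ± 1.73 CPM in WT (adjusted p = 0.0249), a call lost on the deposited CPM (0.0565) and without WT replicate 1 (0.12), WT replicate 3 (0.0587) or hrlp-2 replicate 1 (0.142). ACA12 was lower, at 0.593 ± 0.240 CPM in hrlp-2 and 1.44 ± 0.225 CPM in WT (adjusted p = 0.00867, and 0.0502 without WT replicate 2).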

How the data were processed

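The 6 deposited tables, 1 per library, give a CPM value per gene. Alignment with STAR 2.7.3a and the TAIR10 build come from the submitters' processing notes. Neither a counting tool nor its strand setting is stated there. Per the labels, RNA was taken with an RNeasy Plus kit and libraries were made with a directional NEBNext Ultra II kit. One row without a name was left out of each table. Of the values above 0 and below 2 CPM, 87.9 to 89.5% in a library lay within 0.0051 CPM of a whole number of steps, too few to recover whole reads, so no count test was run.

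CPM values were rescaled with TMM factors (0.99011 to 1.013, trimming 30% of ratios and 5% of levels on each side), filtered at 0.5 CPM in at least 3 libraries and tested as log2(CPM + 0.5) with limma 3.58.1 (R 4.3.3) and an intensity trend, hrlp-2 against WT. P-values were adjusted over all 18643 rows by Benjamini-Hochberg. The procedure was tested on simulated data with the same dispersion in every row. Only the larger changes had to be recovered there, and no requirement was set for small ones. An exact permutation test of 3 against 3 libraries cannot give a two-sided p below 0.1, so none was used. No 2 libraries of a group agreed within counting noise (median chi-square per row 0.799 to 0.916, against 0.455).

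Exon and coding lengths are those of the transcript numbered 1 in RefSeq TAIR10.1, EF-hand loops are matches to the PROSITE pattern, and sequences were aligned with Biopython 1.88. Members and gene lists were chosen with earlier results of these data known. Named are the called members whose groups do not overlap, the member with the highest level and with the largest change in each family, every CAM gene, HRLP, and up to 4 called genes of each further list; other members and the marker genes were named after their values were seen.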

Additional observations from a re-analysis of the deposited data

How the results depend on the processing

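Against 15 alternative settings (pseudocounts of 0.25 and 1 CPM, no filter and a filter of 1 CPM, 3 other scalings, voom on estimated reads, a replicate block, and each library left out), 13 of the 20 called members kept their call in every one. Over 54 named genes and those settings, 752 of 810 values kept their direction and their call, 45 lost the call, 6 gained one and 7 changed sign. With the replicate block the same 20 members were called, 16 higher and 4 lower. The labels do not say whether same-numbered samples were handled together. Deviations of same-numbered libraries correlated at -0.00794, -0.0163 and -0.0264, so no shared replicate effect was seen. Members called higher numbered 11 to 16 with 1 library left out and those lower 4 to 5; CML genes called higher numbered 7 to 10. Kinase genes called higher numbered 3 to 5, with 3 each without WT replicate 1, WT replicate 3 or hrlp-2 replicate 3. The median log2 fold change of CML genes was 0.098 with no expression filter and 0.080 to 0.218 with 1 library left out. The kinase median was 0.031 on the deposited CPM not rescaled and 0.046 to 0.065 with 1 library left out. CAM5 changed sign on the deposited CPM (log2 fold change -0.004). With 1 library left out, CAM2 ran from -0.024 to 0.078, CPK21 from -0.007 to 0.065 (-0.000 without hrlp-2 replicate 1), CBL9 from -0.144 to 0.055 and CML9 from -0.003 to 0.071; the cause was not tested. On the deposited CPM 1639 of all rows were called higher and 2035 lower, against 2059 and 1736 after TMM scaling. Of the other named genes, SARD1 reached adjusted p = 0.0623, 0.0829 and 0.0657 with hrlp-2 replicate 1, hrlp-2 replicate 3 and WT replicate 2 left out, and CBP60F 0.056 with WT replicate 3 left out.

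The values are CPM of whole aerial tissue from 3 libraries a group, so small changes of scarce genes such as CML41 and CIPK4 lie close to what a single library can move. The 23 CML rows without a locus could not be set against length, neighbours or start regions. The CAM genes, CPK21 and CPK23 are alike enough for reads to be shared.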

Other observations

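The CAMTA, CBP60 and IQD families, which include calmodulin-binding proteins, were followed through 38 tested genes, SARD1 among them. Of these, 3 were called higher and 1 lower (10.5%, beside 20.4% of all tested rows). CBP60G, a calmodulin-binding activator of salicylic acid synthesis genes, had 14.8, 12.5 and 12.98 CPM in hrlp-2, against 5.70, 6.52 and 4.25 CPM in WT (log2 fold change 1.25, adjusted p = 1.03e-09). SARD1, a related gene, had 9.18 ± 0.961 CPM in hrlp-2 and 7.09 ± 0.34 CPM in WT (log2 fold change 0.37, adjusted p = 0.0142). CBP60F was lower, at 9.27 ± 0.156 CPM in hrlp-2 and 12.1 ± 0.771 CPM in WT (log2 fold change -0.35, adjusted p = 0.00675). IQD31 differed by a log2 fold change of 0.12 (adjusted p = 0.0292), a call lost in 6 of 15 alternatives (highest adjusted p 0.203, on leaving hrlp-2 replicate 2 out). The transcription factor genes CAMTA2, CAMTA3 and CAMTA4 were not called.

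Of 19 genes known to respond to touch or wounding, a list put together after these values were known, 13 were called higher in hrlp-2 and none lower (68.4%, beside 20.4% of all tested rows). XTH22 (TCH4), a cell wall enzyme gene of the touch group to which CML12 and CML24 belong, had the largest log2 fold change of the list, 2.16. ACS6, CAF1-9 and SZF1 followed at 1.97, 1.63 and 1.501. CAM2 (TCH1), of the same touch group but not on the list, was not called (log2 fold change 0.03, adjusted p = 0.762). The summed level of the list was 276.3 to 280.9 CPM in hrlp-2 and 114.9 to 118.3 CPM in WT.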
